A study of Homo sapiens with 6 samples.

Results

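The genes described here are PMEPA1, SMAD7, SKIL, SKI, SMURF1 and SMAD3, the SMAD pathway regulators of a map of Argonaute crosslinks in human HK2 cells. Members are all crosslink sites that the authors' annotation assigns to 1 of these 6 gene symbols, 56 of 16230 sites. PMEPA1 holds 27 of them, SMAD3 11, SKIL 8, SKI 6, SMURF1 3 and SMAD7 1. The sites were chosen by gene name, and no measured value entered that choice.

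HK2 is an established, immortalised line of human kidney proximal tubule epithelium. The map came from PAR-CLIP, which labels new RNA with 4-thiouridine so that ultraviolet light can link it to bound protein, and which marks the linked T by a base change in the reads. There were 2 anti-Argonaute libraries of wild-type cells after 24 h with 20 ng/mL TGF-beta1 and 2 of wild-type control cells. Per the labels' protocols, which are the same for all libraries, cells were starved of serum for 24 h before exposure, labelled with 100 µM 4-thiouridine over the final 20 h and exposed to light of 365 nm. A pull-down with IgG from control cells (2 libraries) was not analysed here, and values are printed without a background.

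TGF-beta binds a pair of receptor kinases that phosphorylate SMAD2 and SMAD3, which enter the nucleus with SMAD4 and switch on target genes. Several of those targets feed back on the pathway. SMAD7 blocks the activated receptor and recruits ubiquitin ligases such as SMURF1 to it, PMEPA1 (also called TMEPAI) sequesters receptor SMADs at membranes, and SKI and SKIL (SnoN) are nuclear co-repressors that bind SMAD complexes. SMAD3 itself carries the signal and is a regulator of the pathway but not an inhibitor of it. Argonaute is guided by a microRNA, whose seed (bases 2 to 8) pairs with the target RNA. In kidney tubule cells TGF-beta is best known for driving fibrotic gene expression.

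The windows below are shown because they hold most of the members' crosslinked reads or carry the differences described later. Each is the 30 nt around 1 crosslink on the transcript strand, 5′ to 3′, on the hg38 genome, with the annotated match to a microRNA seed in capitals.
SMAD7 coding, let-7, chr18:48921771-48921800, minus strand: gatatcttctatgatCTACCTCaggggaat
SKIL 3′ UTR, let-7, upstream site, chr3:170396594-170396623, plus strand: acagaaaactgtcctCTACCTCacgtgaaa
SKIL 3′ UTR, let-7, downstream site, chr3:170396717-170396746, plus strand: ctgtgctctgagcttaTACCTCaattgtat
PMEPA1 intron, let-7, chr20:57706320-57706349, minus strand: tcctggcaacctcatCTACCTCatttcagt
PMEPA1 3′ UTR, miR-21, chr20:57648561-57648590, minus strand: tcaagttaaacttatgTAAGCTttccgtgg
PMEPA1 3′ UTR, miR-221 and miR-222, chr20:57648912-57648941, minus strand: gaaaagggaccccatATGTAGCaaaaatca
PMEPA1 3′ UTR, miR-181a-2-3p, chr20:57651396-57651425, minus strand: tataaatatgTCAGtGcttgcttgatggaa
SMURF1 3′ UTR, miR-103a, chr7:99027652-99027681, minus strand: cttgttttgaagtatTGCTGCtatccttgt
SKI 3′ UTR, miR-17 family, chr1:2307721-2307750, plus strand: cgtatatttagaactGCACTTTgtccacaa

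The deposited windows mask the crosslinked base. It was filled with t, and at all 1296 sites of the table where an annotated seed match spans the masked base, a T restored the match. The matching mature microRNAs, from RefSeq with the GRCh38.p14 table, are shown with the seed in capitals, so that each can be set against its window.
hsa-let-7a-5p: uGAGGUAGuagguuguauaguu
hsa-miR-21-5p: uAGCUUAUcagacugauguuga
hsa-miR-221-3p: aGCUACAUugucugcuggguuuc
hsa-miR-222-3p: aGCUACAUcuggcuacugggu
hsa-miR-103a-3p: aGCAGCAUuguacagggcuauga
hsa-miR-17-5p: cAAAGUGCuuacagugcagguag
hsa-miR-20a-5p: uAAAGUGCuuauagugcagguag
hsa-miR-181a-2-3p: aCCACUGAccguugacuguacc
The first windows share the let-7 core TACCTC, although they lie in 3 genes and in a coding exon, a 3′ UTR and an intron. miR-17-5p and miR-20a-5p share 1 seed, as do miR-221-3p and miR-222-3p.

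Library depth was 5293208 and 3415700 reads with TGF-beta1 and 1714445 and 1926255 reads in control cells. Crosslinked reads at listed sites numbered 74969 and 72206 with TGF-beta1 and 36958 and 53835 in control cells. Values are crosslinked reads relative to library depth (RPM), scaled by TMM, a factor that sets the typical gene equal between libraries. Leaving it out put the median log2 difference of all tested genes at -0.45, so differences below are relative to the typical gene. Whether replicates were separate cultures is not stated in the labels, and the p-values rest on a spread between libraries that may be technical. None of 11 proximal tubule markers listed for the check had a crosslink site, and of 6 epithelial markers KRT18 and CDH2 did. A gene without a site is not shown to be silent.

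Argonaute crosslinks rose on PMEPA1 and SMAD7 after TGF-beta1, and both genes had values without overlap between the groups. In the test across all genes (limma on log2 of scaled RPM + 1, two-sided, Benjamini-Hochberg adjusted p under 0.05), 39 of 1266 genes passed, a background of 3.08%. Of those, 20 were higher (1.58% of the tested genes) and 19 lower. All 6 members were tested, 2 were higher and none was lower. SKIL and SMURF1 also lay higher without overlap, and did not pass. Of all tested genes, passed or not, 20.5% lay higher without overlap. More RNA of a gene and more Argonaute per RNA cannot be told apart in these values, nor can fewer expressing cells and less RNA per cell.

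PMEPA1 had 56.1 and 46.7 scaled RPM with TGF-beta1, on 198 and 164 reads, against 8.30 and 8.63 in control cells, on 15 and 23 reads. Both treated libraries lay far above both control libraries. The means were 51.4 ± 6.67 and 8.46 ± 0.232 (SD, n = 2 each), a 6.08-fold difference, and the log2 difference was 2.46 ± 0.26 (SE, limma adjusted p = 0.000455). It stayed past the threshold without TMM (adjusted p = 0.0218), but not without control replicate 1 (adjusted p = 0.111) or control replicate 2 (0.338), when no gene passed.

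SMAD7 had 29.8 and 34.7 scaled RPM with TGF-beta1, on 105 and 122 reads, against 12.2 and 12.8 in control cells, on 22 and 34 reads. All of these reads came from 1 site. The gene-level means were 32.3 ± 3.52 and 12.5 ± 0.412 (SD, n = 2 each), a 2.59-fold difference with a log2 difference of 1.30 ± 0.26 (SE, limma adjusted p = 0.0224). The call ended without TMM (0.78 on the log2 scale, adjusted p = 0.537) and when any 1 library was left out (adjusted p = 0.236 and 0.338 without control replicates 1 and 2, 0.110 and 0.155 without TGF-beta1 replicates 1 and 2).

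SKIL, the SnoN gene, had 36.6 and 51.8 scaled RPM with TGF-beta1, on 129 and 182 reads, against 21.02 and 19.5 in control cells, on 38 and 52 reads. The treated libraries differed from each other by more than the control libraries did. Mean levels were 44.2 ± 10.8 and 20.3 ± 1.07 (SD, n = 2 each), 2.18-fold apart, and the log2 difference of 1.07 ± 0.26 just missed the threshold (SE, limma adjusted p = 0.0521). It passed with edgeR's quasi-likelihood test on recovered reads (adjusted p = 0.0376), with DESeq2 on those reads (0.0484), and with 3′ UTR sites only (limma adjusted p = 0.000337, where 70 of 788 genes passed). In all it passed under 5 of 15 alternatives. Without TMM the log2 difference was 0.54 (limma adjusted p = 0.671), and no run that left out 1 library passed (0.0910 to 0.459).

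The ubiquitin ligase gene SMURF1 had 15.3 and 14.5 scaled RPM with TGF-beta1, on 54 and 51 reads, against 8.85 and 8.63 in control cells, on 16 and 23 reads. Both treated libraries were higher, by 0.71 ± 0.30 on the log2 scale (SE), which did not pass (limma adjusted p = 0.298). The co-repressor gene SKI had 5.95 and 6.55 scaled RPM with TGF-beta1, against 6.08 and 10.5 in control cells. Its groups overlapped, and the log2 difference of -0.32 ± 0.38 (SE) did not pass (limma adjusted p = 0.774).

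SMAD3, the signal transducer, had 7.65 and 3.99 scaled RPM with TGF-beta1, on 27 and 14 reads, against 6.64 and 3.38 in control cells, on 12 and 9 reads. The groups overlapped, with a log2 difference of 0.18 ± 0.46 (SE, limma adjusted p = 0.905). The differences of SKI and SMAD3 turned sign under some settings, all short of the threshold, so neither gene has a direction here. At these depths the standard errors of both genes leave room for a moderate change either way.

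**Figure D1:**
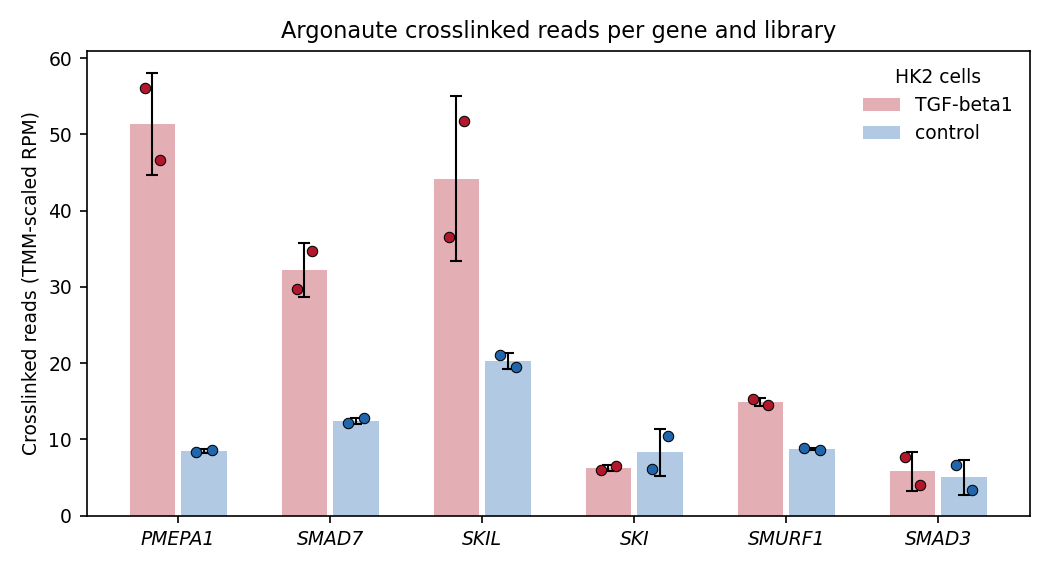
Crosslinked reads in TMM-scaled RPM (y axis) of the 6 genes. Bars are means of 2 libraries, error bars the SD and points the libraries, with TGF-beta1 left of control. PMEPA1 stands at 56.1 and 46.7 with TGF-beta1 against 8.30 and 8.63 in control cells, and the groups overlap for SKI and SMAD3.

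The members differ in where their transcripts were crosslinked. PMEPA1 had 14 sites in the 3′ UTR, with 79.75% of its crosslinked reads, and 13 in introns. SKIL had 7 sites in the 3′ UTR with 93.02% of its reads and 1 in coding sequence. SMURF1 had 1 site in the 3′ UTR, with 83.33% of its reads, and 2 in introns.

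SKI had 2 sites in the 3′ UTR, with 69.88% of its reads, and 4 in introns. SMAD3 was the reverse, with 10 of its 11 sites and 95.16% of its reads in introns. SMAD7 had only the coding site. Over all members 51.8% of sites lay in introns, against 22.1% of all listed sites, and 3.57% in coding sequence, against 26.2%. The share in the 3′ UTR was 44.6%, against 39.0%. These are shares of sites and not of reads. Most of the intron sites were in PMEPA1 (13) and SMAD3 (10), and introns held 20.25% of PMEPA1 reads. The SMAD7 coding site alone held 283 of 1373 member reads.

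These shares of reads were not shown to differ with TGF-beta1. The 3′ UTR share of PMEPA1 reads was 80.5% ± 2.59 with TGF-beta1 and 68.0% ± 20.7 in control cells (SD, n = 2 each, exact two-sided permutation p = 1.0). For SKI it was 60.97% ± 12.2 and 77.4% ± 6.66 (exact permutation p = 0.333, the smallest that 2 libraries against 2 can give). Reads at sites with a listed seed made up 87.3% ± 1.92 of all member reads with TGF-beta1 and 89.1% ± 1.99 in control cells, with overlapping libraries. By gene the means of this share lay in opposite directions. With no overlap of the libraries, it was lower with TGF-beta1 for PMEPA1 (75.5% against 81.3%) and SKI (65.3% against 90.1%). It was higher for SMAD3 (77.9% against 51.4%) and SKIL (93.5% against 90.9%). The exact permutation p was 0.333 for each. SKI had 52.4% and 78.3% in the treated libraries, and the SMAD3 control shares rest on 12 and 9 reads. The share of all genes without such overlap was not computed, so no direction is shown.

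Most sites were thin, in the members as in the whole map. Of the 56 sites, 22 held 10 reads or more over the 4 libraries and 34 (60.7%) held fewer, against 64.5% of all listed sites. In the control libraries 15 sites (26.8%) had no crosslinked read, against 11.5% of all listed sites, and 11 of these 15 were in PMEPA1. None lacked reads in both treated libraries, and only 1.19% of all listed sites did. The control libraries were also the shallower ones, and the part of depth in this difference was not tested.

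Of 1059 single sites tested, 76 passed (7.18%), of which 39 were higher (3.68% of the tested sites). Of the members, 7 sites passed the filter on low counts. The PMEPA1 miR-21 site passed it through the 2 treated libraries alone and is given below as values, with no test. Of the other 6, those that rose were the PMEPA1 miR-181a-2-3p site, the SMAD7 coding site and the downstream SKIL let-7 site. All 3 calls ended with no TMM factor (adjusted p from 0.126 to 0.534), without the variance trend (0.0666 to 0.0812), with coverage in place of crosslinked reads (0.0593 to 0.120) and without TGF-beta1 replicate 1 (0.205 to 0.805). Without TGF-beta1 replicate 2 the SMAD7 site (adjusted p = 0.0647) and the SKIL site (0.143) did not pass, nor did the SKIL site without control replicate 2 (0.0564).

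**Figure D2:**
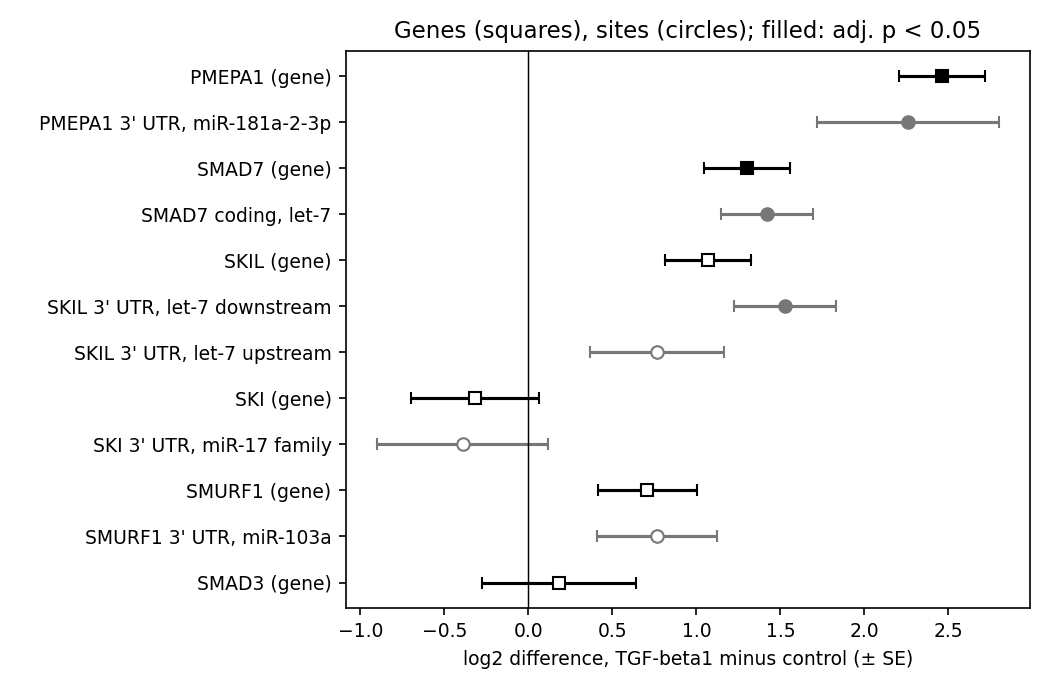
Log2 difference, TGF-beta1 minus control (x axis), with its SE, for the 6 genes (squares) and 6 sites (circles). Filled symbols passed the test, which are PMEPA1 and SMAD7 among the genes and 3 of the sites.

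The miR-21 window of PMEPA1 had 6.47 and 6.28 scaled RPM with TGF-beta1, on 21 and 22 reads, against 0 and 0.344 in control cells, on 0 and 1 reads. Nearly all of its reads came from treated cells, and it passed the filter on low counts through these alone, so no test of it is given. The ratio of summed reads, scaled to depth and TMM, was 30.01. It rests on 1 control read, and no interval is given. miR-21 is a microRNA well known in kidney fibrosis. The match pairs bases 2 to 7 and starts 2 nt downstream of the crosslinked T.

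The window with most PMEPA1 reads, 89 over the 4 libraries, matches bases 3 to 8 of miR-181a-2-3p. It had 16.3 and 7.43 scaled RPM with TGF-beta1 against 0.553 and 3.10 in control cells. The libraries of a group disagree here, and the groups do not overlap. The ratio of summed reads was 5.51, with an exact counting interval of 2.85 to 11.9 that leaves out the spread between libraries. The log2 difference was 2.26 ± 0.54 (SE, limma adjusted p = 0.0103). This window reached the filter's cutoff in both treated libraries and 1 control library. The log2 difference was 1.61 without control replicate 1, and 2.82 without control replicate 2. Leaving out TGF-beta1 replicates 1 or 2 gave 1.94 and 2.94. The same window was also annotated with a miR-106b-3p match.

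Other PMEPA1 windows were too thin for the test and are given as values. The window with a 7-base match to miR-221 and miR-222 had 8.01 and 2.00 scaled RPM with TGF-beta1 against 0.553 and 1.03 in control cells. Its ratio of summed reads was 5.76. A window at position 57651443 with a miR-148 and miR-152 match had 4.62 and 3.71 against 0.553 and 0.688. A miR-23 window at 57651900 had 3.69 and 4.86 with TGF-beta1 against 0 and 1.03 in control cells. None of these overlapped between groups. Of all tested sites in the map 23.9% lay higher without overlap, but these windows were too thin to be among them. The share among such thin sites was not computed.

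Overlap was seen at the remaining PMEPA1 windows with a seed and at least 10 reads. A miR-181 window at 57651878 had 1.54 and 2.86 scaled RPM with TGF-beta1 against 1.66 and 0 in control cells. The intronic let-7 window had 1.23 and 1.71 against 1.66 and 0, on 13 reads in all. The 14 sites of the 3′ UTR span 3324 nt in a pair of stretches with a gap of 1830 nt between them. The mean with TGF-beta1 exceeded that of control cells at all 14, and groups overlapped at 2 of them. The share of all listed sites with a higher mean was not computed. Of all listed sites, 11.5% had no crosslinked read in control cells and 1.19% none with TGF-beta1. The list itself thus leans to the deeper, treated libraries. Of all tested sites in the map, 23.9% lay higher without overlap, a share that leaves out sites too thin for the test. Most of these 14 were too thin to be tested, and several had no crosslinked read in control cells. They lie in the same 3′ UTR and are not independent of each other.

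**Figure D3:**
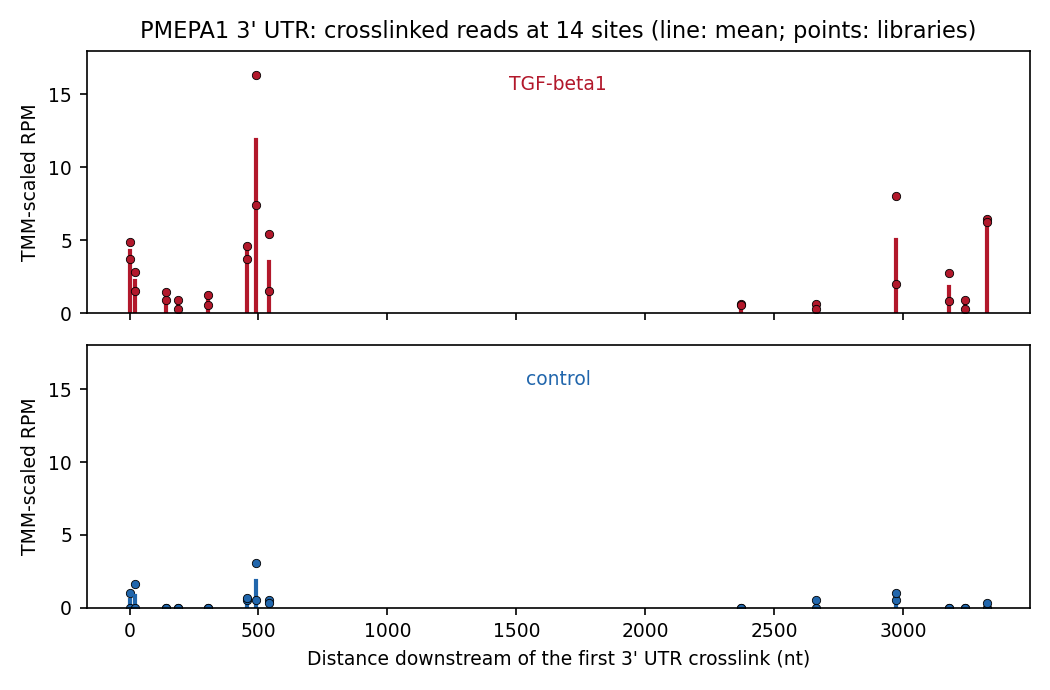
Crosslinked reads in TMM-scaled RPM (y axis) at the 14 sites of the PMEPA1 3′ UTR, by distance in nt downstream of the most upstream site (x axis). Lines are means and points the 2 libraries, with TGF-beta1 above and control below. The highest point is 16.3 with TGF-beta1 at the miR-181a-2-3p window, and the miR-21 window is the last one downstream.

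The SMAD7 coding window had 32.3 and 34.8 scaled RPM with TGF-beta1 against 12.2 and 11.7 in control cells, on 283 reads in all, the most of any member site. Both groups were tight. The log2 difference was 1.42 ± 0.27 (SE, limma adjusted p = 0.00207). The window carries a full match to bases 2 to 8 of let-7, followed by an A. Site and gene values differ slightly because TMM was computed separately over sites and genes.

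Both let-7 windows of SKIL lie 123 nt apart in its 3′ UTR. The downstream one had 23.4 and 31.7 scaled RPM with TGF-beta1 against 9.41 and 8.26 in control cells, a log2 difference of 1.52 ± 0.30 (SE, limma adjusted p = 0.00230). The upstream one had 9.24 and 10.0 against 4.98 and 5.51, and its difference of 0.77 ± 0.40 did not pass (SE, limma adjusted p = 0.294). The upstream window has the longer seed match, and the downstream one the more reads, 228 against 90.

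Whether sites of 1 gene moved unequally was tested directly. With limma's diffSplice, 0 of 512 sites (0%) differed from the other tested sites of their gene, while with no adjustment 13 had p under 0.05 as higher and 10 as lower. For the downstream SKIL window the difference from the upstream one was 0.76 on the log2 scale (diffSplice adjusted p = 0.893). The unequal site calls within SKIL are therefore not a shown difference between its sites.

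Further SKIL windows with a seed were thinner. A miR-183 window at position 170394959 had 1.23 and 3.14 scaled RPM with TGF-beta1 against 1.11 and 2.75 in control cells, so the groups overlapped. A coding window at 170360694 with a miR-7 match had 3.08 and 3.71 against 2.77 and 0.

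The SMURF1 3′ UTR window, with a match to bases 2 to 7 of miR-103a-3p, had 13.9 and 11.7 scaled RPM with TGF-beta1 against 6.64 and 7.57 in control cells. It held 120 of the 144 SMURF1 reads. Its log2 difference of 0.76 ± 0.36 did not pass (SE, limma adjusted p = 0.227). A SMURF1 intron window with a miR-221 and miR-222 match had 2.16 and 2.28 against 1.66 and 0.344.

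SKI carried the seed of the miR-17 family, which the series title names. Its 3′ UTR window had 3.08 and 4.28 scaled RPM with TGF-beta1 against 3.32 and 7.57 in control cells, a log2 difference of -0.39 ± 0.51 (SE, limma adjusted p = 0.742). The 2 groups overlapped, and control replicate 2 gave the highest value, with 22 of the 53 reads. In SMAD3 the deepest site, an intronic window with a miR-182 match, had 14 reads in all and was not tested.

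Seed matches were shared across the members to a limited degree. Of the 56 sites, 33 (58.9%) had a listed seed, against 63.1% of all listed sites, and these were of 22 microRNA seed families. The let-7 family was matched at 4 sites in PMEPA1, SKIL and SMAD7, and these held 614 of 1373 member reads (44.7%). Of these reads, 283 were at the SMAD7 site and 228 at the downstream SKIL site. The let-7 share of reads over all listed sites was not computed, so no excess in the members is shown. miR-221 and miR-222 were matched at 3 sites, in PMEPA1, SMAD3 and SMURF1. Several windows also carry a second annotated match beside the one named. These are miR-200b and miR-429 at the SMURF1 miR-103a window, miR-148 and miR-152 at the SKI miR-17 window, and miR-320 at the miR-21 window. Full let-7 matches were also annotated with miR-196, the downstream SKIL window with miR-24 and the SKIL miR-183 window with miR-182.

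Most reads lay at sites whose match is annotated as adjacent to the crosslinked T. There were 9 such sites, with 893 reads, or 65.0% of member reads against 44.8% of reads at all listed sites. Counted by sites the shares went the other way, with 16.1% of member sites against 22.95% of all listed sites. Most of the 893 reads came from the SMAD7 coding site (283) and the downstream SKIL let-7 site (228). No SMAD3 site had an adjacent match, whereas PMEPA1 had 3, SKIL 3 and the other genes 1 each. All 5 full 7-base matches were among these 9 sites. Of the 5, 4 had an A opposite microRNA base 1, against 45.4% of the 2916 such matches in the series where that base could be read and 27.2% of all window bases. The 6-base matches to bases 2 to 7 went the other way, with an A at 2 of 16 member sites (12.5%) against 32.1% in the series. So few matches do not suffice to say that the members differ.

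The share of covering reads that carry a crosslink also differed with the position of the match. Among member sites it was 40.0% of covering reads at adjacent matches, 24.2% at near ones, 13.1% at other positions and 16.1% without a match. Over all listed sites the shares were 39.0%, 18.3%, 16.3% and 14.6%. By site, the SMURF1 miR-103a window reached 91.6% of 131 covering reads (95% Wilson interval 85.6 to 95.2) and the PMEPA1 miR-221 and miR-222 window 80.4% of 46 (66.8 to 89.3). The downstream SKIL let-7 window had 20.9% of 1089 (18.6 to 23.5). Intervals cover counting error only, since PCR reads are not independent molecules.

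A site 33 nt upstream of that SKIL window had 5 crosslinked among 308 covering reads, 1.62% (0.695 to 3.74). Neighbouring sites can share the reads that cover them, so covering reads of neighbours are not independent. Sites of SMAD3 had few reads, and at several of them every covering read was crosslinked.

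**Figure D4:**
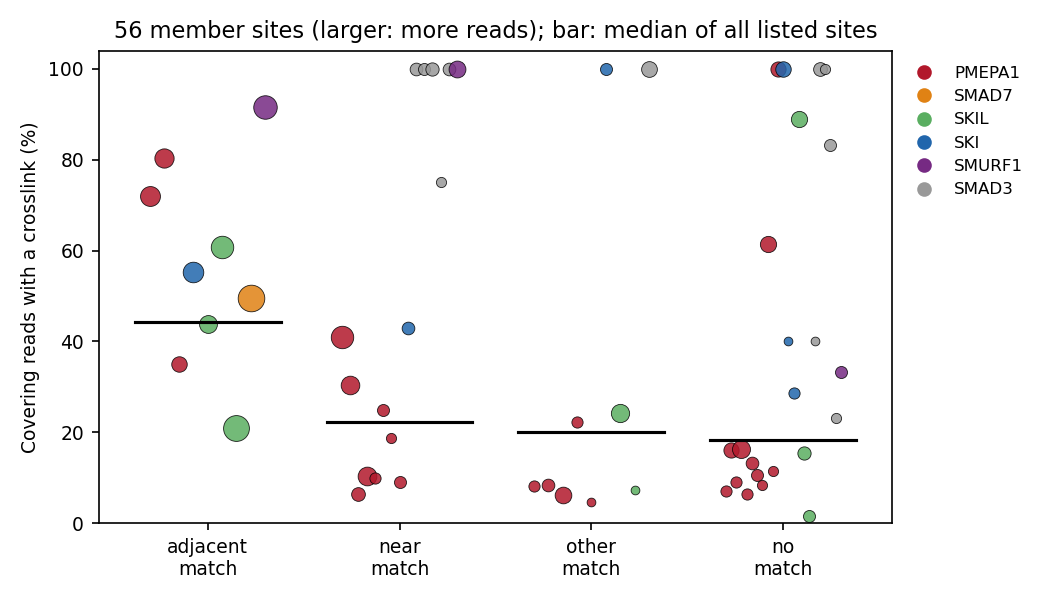
Share of covering reads with a crosslink in percent (y axis) at the 56 sites, by position of the annotated seed match relative to the crosslinked T (x axis). Each point is a site, coloured by gene and larger with more reads, and each bar is the median of all listed sites. The bar is highest for adjacent matches, where the member sites run from 20.9% to 91.6%.

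Between groups this share was lower with TGF-beta1 for PMEPA1 and over all members, and no difference could pass the exact test with these numbers of libraries. SMURF1 went the other way without overlap, with 91.7% ± 6.46 against 77.8% ± 2.21 in control cells, the latter on 21 and 29 covering reads. For PMEPA1 it was 18.2% ± 1.36 with TGF-beta1 and 44.4% ± 1.46 in control cells (SD, n = 2 each, exact permutation p = 0.333). Coverage is listed at 0 wherever a library had no crosslinked read. At the 4 PMEPA1 sites crosslinked in all 4 libraries, an alternative chosen after seeing the data, the shares were 33.7% ± 1.96 and 42.2% ± 16.1 (exact permutation p = 1.0). For all members the share was 26.2% ± 0.489 with TGF-beta1 and 40.8% ± 0.0756 in control cells, and at the 14 sites crosslinked in all 4 libraries 36.97% ± 1.16 and 46.9% ± 0.481. Restricted in that way, the difference in percentage points went to -5.20 for SKIL, where it was -1.82 over all its sites. It went to -11.8 for SKI, where it was -7.64, and stayed at -13.5 for SMAD7, which has 1 site. For SMURF1 it went from 13.9 to 5.77, and its libraries then overlapped (92.9% and 98.0% with TGF-beta1, 100% and 79.3% in control cells). For SMAD3 the difference went from -17.1 to 0.0 at its 1 such site. For all listed sites the share was 19.6% ± 2.28 with TGF-beta1 and 27.1% ± 1.82 in control cells, and at those crosslinked in all 4 libraries 24.2% ± 1.80 and 29.3% ± 2.41.

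Beyond the members, 67 further gene symbols of the pathway were listed, of which 37 had a site and 18 were tested. CYR61 and CTGF were also listed under their newer symbols CCN1 and CCN2, which the annotation does not use. Of these 18, 5 were higher (against 1.58% of all tested genes), none was lower and 13 did not pass, with a median log2 difference of 0.13 against 0.02 over all tested genes. The list was chosen with earlier results of these data known. The receptor list had 3 tested genes, of which BMPR2, the type II receptor for bone morphogenetic proteins, was higher. It had 29.8 and 29.3 scaled RPM with TGF-beta1 against 11.1 and 11.3 in control cells (limma adjusted p = 0.0217). Of 2 tested ligand genes INHBA, an activin subunit, was higher, at 174 and 200 against 36.5 and 49.9 (adjusted p = 0.000455).

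Among 8 tested transcriptional targets 3 were higher (against 1.58% of all tested genes), FN1 and TGFBI among them. The fibronectin gene FN1 stood at 309 and 287 scaled RPM with TGF-beta1 against 93.5 and 80.3 in control cells (limma adjusted p = 0.000455). The matrix gene TGFBI stood at 16.2 and 19.9 against 4.43 and 4.13 (limma adjusted p = 0.0131). Others lay on the lower side without passing, such as CYR61, a matricellular protein gene, with 12.5 and 14.2 against 29.9 and 24.8 (log2 difference -0.98, adjusted p = 0.0911), and KLF11, with a log2 difference of -0.55 (adjusted p = 0.539). Both were chosen after their values were seen. The 4 tested cofactors and ubiquitin-system genes, TGIF1, TGIF2, USP9X and RNF111, did not pass. Of the other SMADs, SMAD5 was tested and did not pass, with a log2 difference of -0.69 (limma adjusted p = 0.425).

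Genes with the most similar pattern over the 4 libraries were found by Euclidean distance between log2 values centred on each gene's mean. For PMEPA1 they were SEMA7A at a distance of 0.198 and FRMD6 at 0.231, against a median of 2.53 over all tested genes. FRMD6 is the target named in the series title. For SMAD7 they were AMIGO2 at 0.0442, BMPR2 at 0.172 and ZFHX3 at 0.277, against a median of 1.44. The nearest genes of SKIL were FAR1, KDM6B and AMIGO2, at 0.192 to 0.307.

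AMIGO2 was thus near both SMAD7 and SKIL. Those of SMURF1 were ARF1, SNORD104 and ITGA5, those of SKI were RBBP6, MIRLET7F1 and STX3, and those of SMAD3 were LRCH1, KDELR2 and MALAT1. With 4 libraries such distances mostly follow the size of the difference between the groups, and they are a description without a test.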

How the data were processed

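Per the file headers, the deposited table gives for each site and library 2 values in RPM, scaled by the authors to the library's total reads: reads covering the crosslinked position and reads with a crosslink there. The authors also deposited a score per microRNA seed, its microRNA reads relative to depth, rounded. Tools in the submitters' processing notes are bcl2fastq 2.20.0.422, STAR 2.7.1a and bedtools, and the build is hg38. Annotation was from GENCODE release 27, per the file headers. The crosslink caller is not given in the sources used here. Another 4 columns of per-sample values of other samples were not used.

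All RPM values were whole multiples of 1 read (100% within 0.1 reads), so reads were recovered. A gene's value is the sum over its sites. Features were kept by filterByExpr (minimum count 10) and tested with limma 3.58.1 (variance trend) on the log2 of TMM-scaled RPM plus a pseudocount of 1, which understates changes at low values. edgeR 4.0.16, DESeq2 1.42.0 and R 4.3.3 were used for factors and alternatives, Python 3.11.15 for the rest. The edgeR test on recovered reads called 48 genes and 82 sites. TMM factors over genes were 0.666 and 1.028 with TGF-beta1 and 1.054 and 1.384 in control cells. The test scripts were checked on simulated data.

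Members, gene lists and tests were chosen with earlier results of these data known. Sites were described singly if they passed the test, held most reads of their gene, or had a listed seed and at least 10 reads. Pathway genes past the threshold, and the 3 nearest genes of each member, were named, except for 1 gene that is not reported here. Shares were compared by exact permutation tests over libraries. Same-numbered libraries of the groups deviated together only weakly (correlation 0.131 over genes, 0.117 over sites, 2 pairs), so numbers were not taken as pairs.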

Additional observations from a re-analysis of the deposited data

How the results depend on the processing

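Of the gene-level differences, that of SMURF1 kept its direction and stayed short of the threshold under all its alternatives (0.19 to 0.87 on the log2 scale). PMEPA1 ranged from 2.40 to 2.67 when a library was left out, SMAD7 from 1.27 to 1.47, SKIL from 0.90 to 1.37. SKI ranged from -0.61 to 0.026 (reversed, without control replicate 2). SMAD3 ranged from -0.22 (without control replicate 2) to 0.65, with -0.18 without TGF-beta1 replicate 1 and -0.27 without TMM. SMAD7 lost its call with no TMM factor (0.78), no filter (1.46), no variance trend (1.30) and coverage (1.35). SKIL gained one with DESeq2 size factors (1.09), pseudocount 2 (1.03), edgeR (1.13), DESeq2 (1.15) and 3′ UTR sites only (1.18).

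Genes called numbered 4 without the filter, 3 without the trend, 25 with coverage, 70 with 3′ UTR sites only, and 0 to 24 leaving out a library. No TMM factor gave 6 higher and 23 lower, against 20 and 19. Sites called numbered 28 without TMM, 0 without the filter, 25 without the trend, 47 with DESeq2, 0 with coverage and 3 to 110 leaving out a library. With the replicate block 35 genes and 117 sites were called, and the block changed no call of a member gene (adjusted p = 0.00183 for PMEPA1, 0.0325 for SMAD7 and 0.0542 for SKIL). Sites differing from the rest of their gene numbered 1 without TMM and 1 with coverage, and 0 leaving out a library.

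Single sites reversed, and none of these reversals was a call. The SKI site did so without control replicate 2 (0.062, from -0.829 over left-out libraries). Against the rest of the gene, the upstream SKIL site reversed with coverage (0.17) and without control replicate 2 (0.093, from -0.924). The PMEPA1 site at 57651411 reversed without control replicate 2 (1.22, from -0.705), and the PMEPA1 site at 57648576 with coverage (-0.27). The latter is the miR-21 window, so its value is given as a difference with no test. In the main fit these PMEPA1 sites were compared only with each other (-0.41 and 0.41). That contrast therefore rests on the miR-21 window too, and no conclusion is drawn from it. The cause of these reversals was not tested. Adding sites with joined gene names gave no value, as none names a member, SMAD7 has no 3′ UTR site, and DESeq2 gave SMAD3 no adjusted p. Depth left 34 of the 56 sites with under 10 reads.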
